A study of Mus musculus with 3 samples.

Results

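Semaphorins, plexins and neuropilins were followed through gliomas of mice, as 34 of the 50262 rows of a single-cell count table. A row was a member when its symbol named a semaphorin of classes 3 to 7, a plexin of the A, B, C or D family, or neuropilin 1 or 2. Of the 34 members, 7 encode secreted ligands (Sema3a to Sema3g), 12 transmembrane ligands of the Sema4, Sema5 and Sema6 classes and 1 the GPI-anchored ligand Sema7a. Another 9 encode plexins and 2 encode neuropilins. The remaining 3 are antisense transcripts of Plxna4. The tumors were started in adult mice by intracranial injection of a Cre lentivirus, so that recombination was limited to infected cells. All mice carried a conditional wild-type human EGFR transgene, Cdkn2a-/- alleles and a conditional luciferase reporter on a mixed strain background, and no group without these alleles was analysed here. Viable cells were sorted into leukocytes (CD45+) and all remaining cells, tumor and stroma (CD45-), and captured with inDrop, which tags each mRNA at its 3′ end with a unique molecular identifier (UMI). The stages were early, medium and late (large in the labels), with 1 tumor sample per stage, and the early sample was pooled from several mice.

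Semaphorins are guidance cues that were first described as repellents of growing axons. They bind plexins, large single-pass receptors whose cytoplasmic part inactivates small Rap and Ras GTPases and so loosens adhesion and the actin cytoskeleton. Most secreted class 3 semaphorins need a neuropilin as the binding subunit of the receptor, whereas Sema3e binds Plxnd1 directly. Transmembrane semaphorins act on neighbouring cells, and Sema7a binds Plxnc1 and beta 1 integrins. Neuropilins also bind vascular endothelial growth factor beside its receptors Kdr and Flt1. In brain, semaphorins steer axons and oligodendrocyte progenitors, and in vessels they limit or permit sprouting.

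The 250 bases before the RefSeq start of 3 members are shown. Each was the most abundant member of a class among those with 1 promoter in the promoter table. These were Sema3d for glioma or progenitor-like, Sema7a for endothelial-like and Nrp1 for microglia-like cells. The member of oligodendrocyte-like cells, Sema5a, held 0 matches to the motifs below and is not shown. Sema3d on one side and Sema7a and Nrp1 on the other differed between glioma or progenitor-like and endothelial-like cells. The sequences are from the RefSeq promoter table of GRCm38.p6, plus strand, 5′ to 3′. The starts differ from those of the gene spans given further on, which are from another annotation: the Sema7a window ends just before that span, the Sema3d window ends short of it, and the Nrp1 window lies inside it. Capitals mark matches to ACAAAG or its reverse complement CTTTGT, a motif of Sox-type factors, and to AGGAAG or its reverse complement CTTCCT, a motif of ETS-type factors. No sequence shown held both motifs.
Sema3d, chr5:12382916-12383165: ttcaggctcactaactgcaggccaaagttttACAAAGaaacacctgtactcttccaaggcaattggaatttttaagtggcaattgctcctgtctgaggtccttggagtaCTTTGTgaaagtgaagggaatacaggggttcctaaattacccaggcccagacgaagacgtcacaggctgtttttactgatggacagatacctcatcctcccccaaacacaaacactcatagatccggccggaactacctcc
Sema7a, chr9:57939862-57940111: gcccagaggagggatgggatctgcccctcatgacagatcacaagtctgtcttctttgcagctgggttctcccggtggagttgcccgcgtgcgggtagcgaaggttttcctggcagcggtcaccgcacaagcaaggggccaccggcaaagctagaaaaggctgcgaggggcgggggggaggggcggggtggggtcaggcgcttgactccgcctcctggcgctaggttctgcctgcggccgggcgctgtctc
Nrp1, chr8:128358823-128359072: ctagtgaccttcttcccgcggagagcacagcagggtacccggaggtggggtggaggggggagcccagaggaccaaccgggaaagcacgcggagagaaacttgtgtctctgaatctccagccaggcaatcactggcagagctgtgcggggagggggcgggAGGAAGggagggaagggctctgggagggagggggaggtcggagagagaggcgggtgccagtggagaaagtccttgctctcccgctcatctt
The Sema3d sequence held 2 Sox-type matches and 0 ETS-type matches, the Nrp1 sequence held 1 ETS-type match, and the Sema7a sequence held neither. The Sox-type letters stood in 16.5% of the 32851 promoters of the table at this length and the ETS-type letters in 29.5%. The table held 37 promoter rows of 26 members, of which 5 rows had a Sox-type and 15 an ETS-type match. A match says only that these letters stand in the window.

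The table held 20811 cells, of which 17755 passed the filters on UMIs, genes, mitochondrial share and doublets. They came from 24 libraries in 3 sequencing runs. Summed UMIs per tumor sample and sort ran from 5366987 to 10814467. Ptprc, which encodes CD45, stood at 228 to 249 CPM (UMIs of the gene per 1000000 UMIs of the sum) in the 3 CD45+ sums and at 3.61 to 16.0 in the 3 CD45- sums. The human EGFR row stood at 7.30 CPM in the early CD45- sum, 704 in the medium and 1223 in the late one, and at 1.85, 271 and 85.0 in the CD45+ sums, so the medium and late CD45+ sorts carried transgene RNA. Of the 17755 cells, 3582 had a barcode that also occurred in another library. Within a run this held for 211, 465 and 465 cells. Cells were clustered on genes other than the members and grouped into 17 classes by marker genes, with names ending in "-like". A further 5 clusters with 2075 cells stayed unnamed. Levels are given as CPM of a class in a tumor sample, with the SD over the 3 samples. A transcript is tagged at its 3′ end, so levels were not scaled by gene length.

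Levels of 31 members (the antisense rows left out) were set side by side over the 13 classes that had at least 20 cells in every tumor sample. For 8 members the lowest sample of the highest class stood above the highest sample of the next. These were Sema3c, Sema7a and Nrp1 in endothelial-like cells, Sema3d and Sema5b in glioma or oligodendrocyte progenitor-like cells, Sema4d in oligodendrocyte-like cells, Plxnb2 in microglia-like cells and Plxnc1 in neutrophil-like cells. For 5 more members (Sema3a, Sema3f, Sema4c, Plxna4 and Plxnb3) the same class came first in each sample, but its range overlapped that of the next class. For the other 18 the first class changed with the sample. Neuron-like cells led for 8 members, endothelial-like cells for 5 and glioma or progenitor-like cells for 4. These counts were not made over all genes, so they describe the members only and are not read as a trait of the family.

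**Figure D1:**
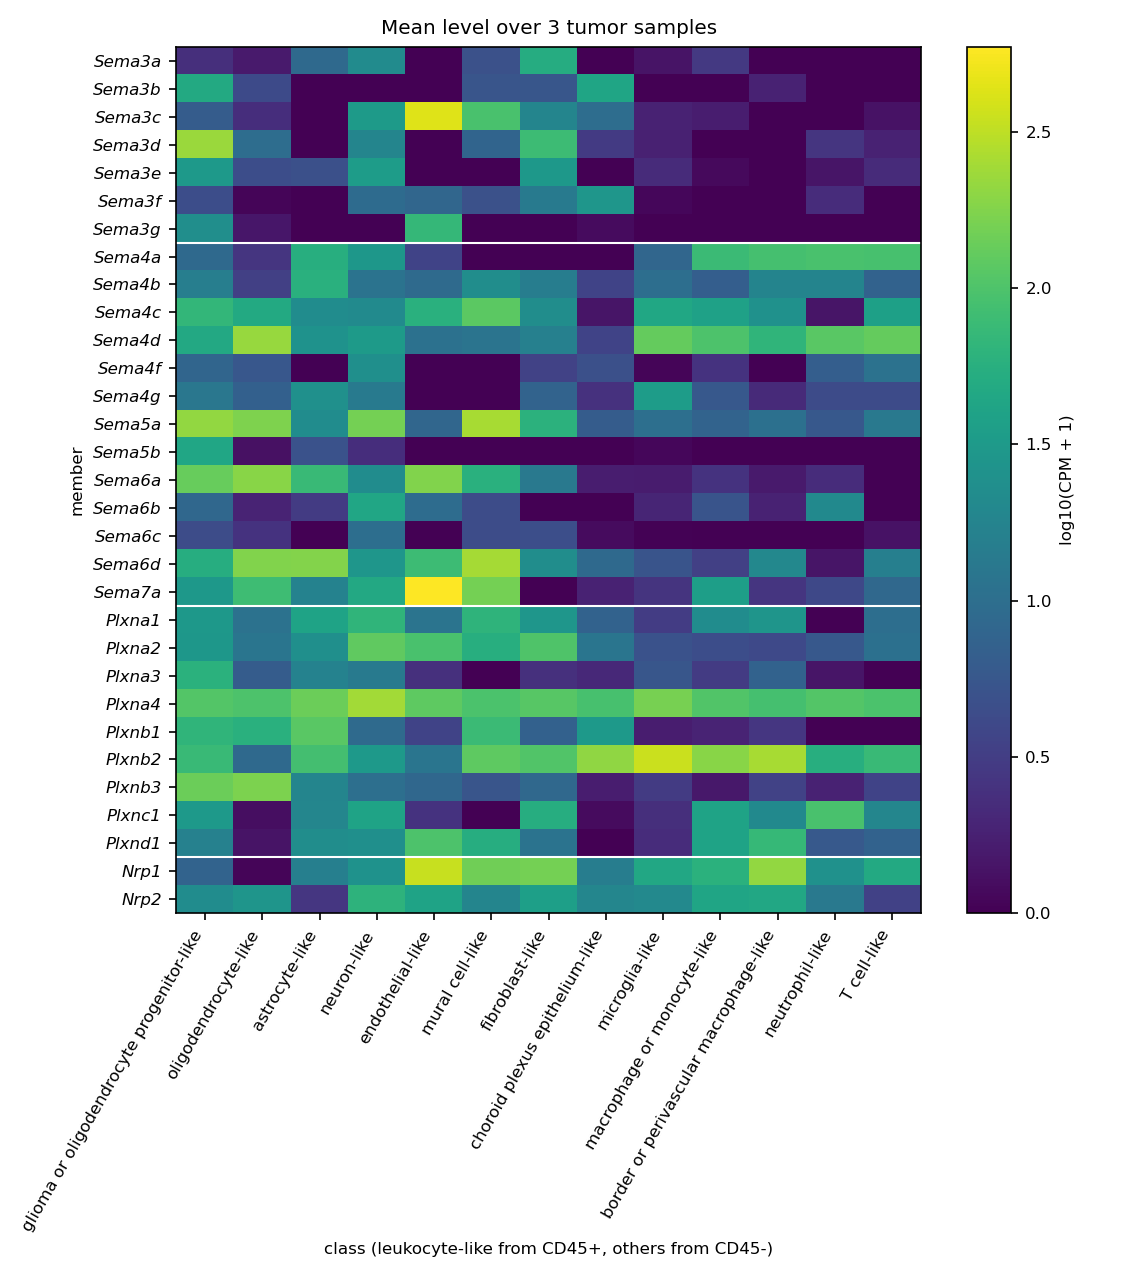
Mean level of 31 members (rows, ordered as secreted ligands, membrane ligands, plexins and neuropilins, with white lines between them) in 13 classes (columns), as log10(CPM + 1) over 3 tumor samples. Secreted ligands were near 0 in the leukocyte-like columns, Plxna4 was at a like level in every column, and the brightest cells were Sema7a (589 CPM) and Sema3c (426) in endothelial-like cells.

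The levels of secreted ligands were highest in endothelial-like and in glioma or progenitor-like cells. Summed over the stages, class 3 semaphorins made up 510 CPM in endothelial-like cells, 374 in glioma or progenitor-like cells and 193 in fibroblast-like cells, against 3.50 in microglia-like and 2.88 in macrophage or monocyte-like cells. The vessel ligand was Sema3c, which signals through both neuropilins. It stood at 518, 327 and 433 CPM in early, medium and late endothelial-like cells (426 ± 95.5, SD, n = 3). Mural cell-like cells, the pericytes and smooth muscle around vessels, followed with 92.9 ± 57.5 and were lower in each sample. The 8 endothelial markers summed to 2369 to 3511 CPM in mural cell-like and 12269 to 13314 in endothelial-like cells, with none at 0 in either, and their part in the mural levels of Sema3c and Sema7a was not tested. Sema3g, a ligand of Nrp2, was at 63.6, 112 and 31.5 in endothelial-like cells and at 8.63, 25.4 and 32.7 in glioma or progenitor-like cells, so that the order of these classes turned in the late sample. In 9 of the 13 classes Sema3g had no UMI.

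The most abundant secreted ligand of the glioma or progenitor-like class was Sema3d (chr5:12383385-12588948, GRCm38), a class 3 semaphorin of developing heart and vessel. In glioma or progenitor-like cells it stood at 186, 277 and 213 CPM in early, medium and late samples (225 ± 46.8, SD, n = 3), and 42.8% of these cells had a UMI. The Susd5-led cluster of the class, with few cells that had a UMI of the human EGFR row, was at 214, 369 and 256 CPM, beside 105, 326 and 281 in the Gpr17-led cluster. Fibroblast-like cells came next with 120, 74.6 and 38.4 CPM. Of the oligodendrocyte-like cells 1.58% had a UMI. Sema3b, a ligand with reported growth-limiting effects in tumors, was at 10.8, 68.2 and 63.2 in glioma or progenitor-like cells and at 41.4 ± 13.2 in choroid plexus epithelium-like cells. Sema3e, the ligand of Plxnd1, stood at 33.0 ± 5.33 in neuron-like cells, 30.2 ± 13.7 in glioma or progenitor-like cells and 29.0 ± 13.1 in fibroblast-like cells, which did not differ beyond their spread. Sema3a, the classical axon repellent, was highest in fibroblast-like cells with 27.7, 64.4 and 59.7, and was at 0, 0.771 and 3.25 in glioma or progenitor-like cells. Sema3f, a ligand of Nrp2, peaked at 27.4 ± 14.1 in choroid plexus epithelium-like cells.

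Membrane-bound ligands were highest in a class that differed from ligand to ligand. Sema7a (chr9:57940112-57962865) was the most abundant member in any class, with 573, 729 and 465 CPM in early, medium and late endothelial-like cells (589 ± 133, SD, n = 3). Mural cell-like cells, which carried the endothelial markers named above, followed with 156 ± 38.6 and oligodendrocyte-like cells with 79.6 ± 15.8, and fibroblast-like cells had 0. Sema4d, a ligand of Plxnb1 and Plxnb2 also known as CD100, stood at 190, 213 and 249 in oligodendrocyte-like cells, above T cell-like (130 ± 18.4) and microglia-like cells (130 ± 2.49). Sema4a, a membrane ligand of immune cells, was at 94.3 ± 42.9 in neutrophil-like, 92.0 ± 43.0 in T cell-like and 89.8 ± 0.190 in border or perivascular macrophage-like cells, values that overlapped. Sema6a, a ligand of Plxna2 and Plxna4, was shared by oligodendrocyte-like (189 ± 41.5), endothelial-like (177 ± 65.5) and glioma or progenitor-like cells (132 ± 39.7). Sema6d, a ligand of Plxna1, led in mural cell-like cells with 296, 243 and 209, beside 175, 160 and 194 in oligodendrocyte-like cells, while astrocyte-like cells stood above both in the late sample with 381 (79.8 in the early and 84.2 in the medium sample). These sums were small, with 58, 39 and 28 mural cell-like cells, and 27 late astrocyte-like cells with 41949 UMIs. Sema5a, which carries thrombospondin repeats, was at 306, 324 and 144 in mural cell-like cells and at 328, 173 and 123 in glioma or progenitor-like cells. Its relative Sema5b was at 79.8, 29.7 and 17 in glioma or progenitor-like cells and had 0 UMIs in 8 of the 13 classes. Sema4c, a ligand of Plxnb2, led in mural cell-like cells with 117 ± 22.1, Sema4b in astrocyte-like cells with 55.9 ± 14.1 and Sema4g in microglia-like cells with 32.7 ± 2.25. Neuron-like cells had the highest Sema6b (42.3 ± 6.55), Sema4f (22.7 ± 17.3) and Sema6c (9.04 ± 8.57).

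The class with the highest level differed between plexins, and only in Plxnb2 and Plxnc1 did it stand apart from the next class. Plxnb2 (chr15:89155549-89180788) was highest in microglia-like cells, with 321, 338 and 389 CPM in early, medium and late microglia-like cells (349 ± 35.3, SD, n = 3). Border or perivascular macrophage-like cells followed with 252 ± 28.5, choroid plexus epithelium-like cells with 202 ± 89.7 and macrophage or monocyte-like cells with 190 ± 44.6. Neutrophil-like cells, which are also myeloid, had 53.4 ± 42.9, below their levels of Plxna4 (107 ± 27.6) and Plxnc1 (92.4 ± 17.8). The lowest Plxnb2 level was in oligodendrocyte-like cells with 7.82 ± 1.37. Plxnb3, the receptor of Sema5a, was at 165 ± 15.6 in oligodendrocyte-like and 140 ± 24.9 in glioma or progenitor-like cells, and at 17.3 ± 6.02 in astrocyte-like cells. Plxnb1 led in astrocyte-like cells with 106, 120 and 119. Plxna3, a partner of neuropilins, was at 88.5, 50.5 and 36.5 in glioma or progenitor-like cells, with 15.9 ± 27.5 in astrocyte-like cells, whose 2 UMIs were both from the late sample. Plxnd1, a receptor of vessels and the binding partner of Sema3e, was at 67.9, 51.4 and 173 in endothelial-like cells and at 89.9, 37.4 and 84.3 in border or perivascular macrophage-like cells. Plxnc1, the receptor of Sema7a, was at 72.5, 98.3 and 107 in neutrophil-like cells. The early and late sums of that class were small, with 50 and 27 cells and 138000 and 75093 UMIs. Plxna2 (124 ± 36.6) and Plxna1 (63.9 ± 3.82) were highest in neuron-like cells.

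Plxna4 differed from the other plexins in its evenness. Its mean level ran from 89.8 ± 35.8 in border or perivascular macrophage-like cells to 245 ± 100 CPM in neuron-like cells, 2.73 times the lowest, and T cell-like (94.8 ± 12.3) and neutrophil-like cells (107 ± 27.6) were among the 13 classes. No class lacked it, so no expression by a given class was read from these values. The antisense row Plxna4os1 lies inside Plxna4 (chr6:32511073-32515576 within chr6:32144268-32588192). It was at 19.3 ± 4.95 in microglia-like cells, with 0 UMIs in 6 classes. Whether the counting used strand is not given in the sources used here, so reads of these genes may not be separable. Plxna4os2 had 4 UMIs and Plxna4os3 had 0.

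Nrp1 (chr8:128358604-128503363), the co-receptor of Sema3a and Sema3c, was at 305, 285 and 449 CPM in early, medium and late endothelial-like cells (346 ± 89.3, SD, n = 3). Border or perivascular macrophage-like cells followed with 278, 180 and 169, and fibroblast-like cells with 155 ± 8.31. Oligodendrocyte-like cells had 1 UMI of Nrp1 in all, and glioma or progenitor-like cells had 6.47, 11.2 and 2.22 CPM. Nrp2, the co-receptor of Sema3f and Sema3g, was lower and more even, from 60.9 ± 19.4 in neuron-like cells to 1.77 ± 3.07 in astrocyte-like cells.

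The sorts were compared to ask which members stood higher in leukocytes and which in tumor and stromal cells. Sema4a, Plxnb2 and Nrp1 were higher in CD45+ cells, and 19 members, among them 7 of 7 secreted ligands, were lower. Of 34 members, 32 passed the filter on low counts, and 7 of these were higher and 19 lower with the edgeR quasi-likelihood test on UMI sums paired by tumor sample. That is 21.9% higher and 59.4% lower, where 20.4% of all 18428 genes tested were higher and 25.7% lower. The median log2 fold change was -1.85 over the members tested and -0.04 over all genes tested. A member could pass the filter through the sort where it is high. Sema3a, Sema3f, Sema5b and Sema6c had 15, 15, 17 and 6 UMIs in the CD45+ sums. The counts, shares and median therefore describe the tested members only. Because each stage is 1 tumor sample, the p-values measure how alike the difference between the sorts was over tumor samples of 3 stages. In such sums, fewer cells of a type and less RNA per cell cannot be told apart. Without trimmed-mean scaling the median of all genes moved by -0.36 on the log2 scale, the members split into 5 higher and 20 lower, and all genes into 2587 higher and 6565 lower in place of 3768 and 4738.

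Among the members higher in CD45+ cells, Plxnb2 was at 280, 158 and 273 CPM in early, medium and late CD45+ sums and at 68.5, 67.9 and 74.5 in CD45- sums. The groups did not overlap (log2 fold change 2.07 ± 0.24, SE, edgeR adjusted p = 0.000451). Sema4a was at 23.9, 59.1 and 22.9 against 5.19, 6.70 and 6.26 (2.77 ± 0.31, edgeR adjusted p = 0.000446). Nrp1 was at 70.3, 60.1 and 52.2 against 26.8, 25.3 and 16.0, so that each CD45+ sum stood above every CD45- sum (1.81 ± 0.20, edgeR adjusted p = 0.000379). The antisense row Plxna4os1 was at 15.5 to 16.4 in CD45+ and at 0.0949 to 1.07 in CD45- sums. Sema4g and Plxnd1 passed with overlapping groups, and Sema4d passed with 107 to 118 against 67.5 to 106. Sema4d and Plxnd1 lost their calls without the medium sample (edgeR adjusted p = 0.0871 and 0.0847) and without trimmed-mean scaling (0.16 and 0.0926).

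Among the members lower in CD45+ cells, Sema6a differed most, at 1.85, 7.12 and 9.69 CPM in early, medium and late CD45+ sums and 82.9, 116 and 156 in CD45- sums (log2 fold change -4.07 ± 0.36, SE, edgeR adjusted p = 0.000201). Sema6d stood at 8.69, 6.91 and 9.50 against 103, 81.0 and 83.0 (-3.05 ± 0.22, edgeR adjusted p = 0.00011), and Plxnb3 at 4.16, 10.0 and 13.6 against 75.9, 119 and 137 (-3.31 ± 0.25, edgeR adjusted p = 0.000125). Each of these groups was apart. Plxnb1, Sema5a, Sema5b, Sema6c, Sema7a, Sema3a, Sema3b, Sema3c, Sema3e, Sema3f, Plxna2, Plxna3 and Sema4f were also lower with groups apart, by 1.55 to 3.42 on the log2 scale. Sema3d was at 2.40, 21.2 and 10.6 against 18.3, 116 and 143, so that the medium CD45+ sum lay above the early CD45- sum (-2.66 ± 0.31, edgeR adjusted p = 0.000491). The human EGFR row was also higher in that medium CD45+ sum (271) than in the early CD45- sum (7.30), and its part in the Sema3d level was not tested. Sema3g overlapped in the same way. Plxna1 passed narrowly (-0.94 ± 0.33, edgeR adjusted p = 0.0495) and lost its call in 7 of the 11 alternatives, and Sema4f lost its call without the early sample (0.152) and without the late sample (0.11). Nrp2, Plxna4, Plxnc1, Sema4b, Sema4c and Sema6b did not pass, with adjusted p from 0.0744 to 0.937 in edgeR.

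**Figure D2:**
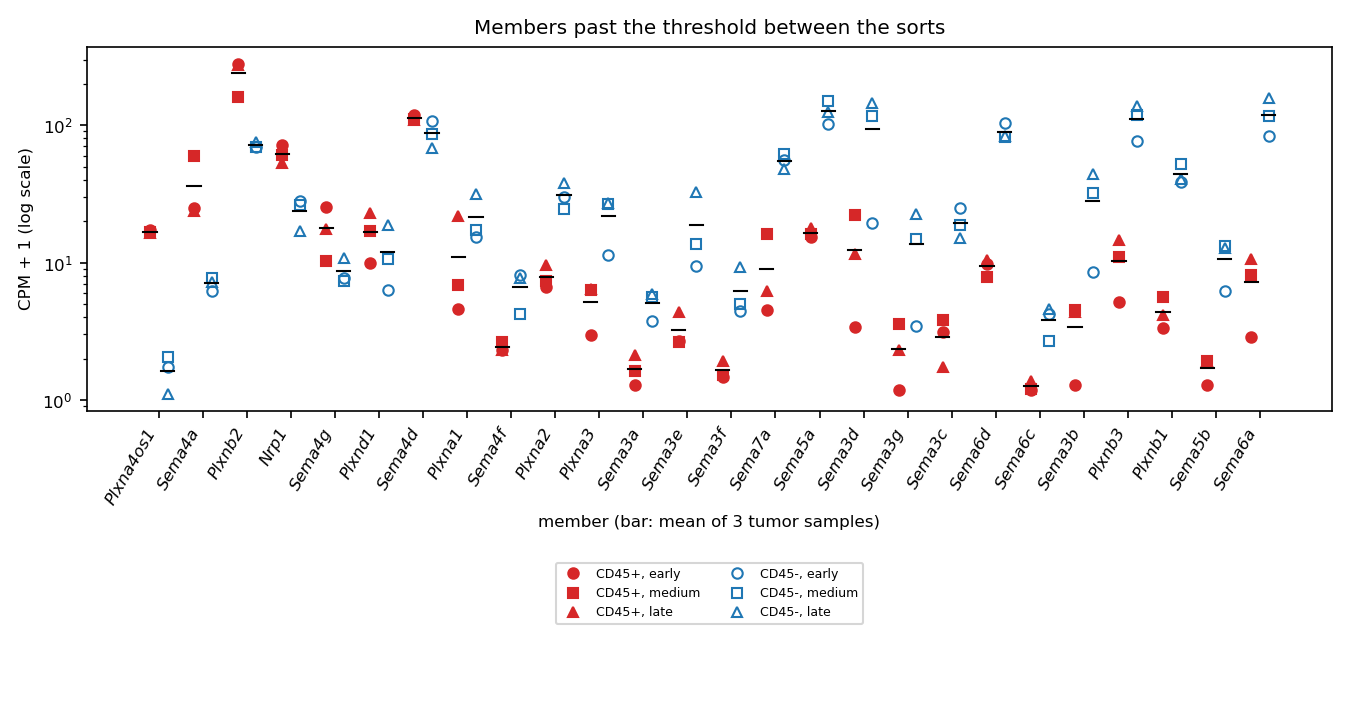
Level of the 26 members past the threshold between the sorts, as CPM + 1 on a log axis, with filled red symbols for CD45+ and open blue symbols for CD45- sums of the early (circle), medium (square) and late (triangle) tumor samples and a bar at the mean. Plxnb2 stood at 158 or more in CD45+ and at 74.5 or less in CD45- sums, and Sema6a at 9.69 or less against 82.9 or more.

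Endothelial-like and glioma or progenitor-like cells of the CD45- sort were compared to set the vessel against the class that holds the tumor cells. The endothelial-like cells had more Nrp1, Sema3c, Sema7a, Plxnd1, Plxna2 and Sema3g, and the glioma or progenitor-like cells had more Sema3d, Sema5a, Plxna3, Plxnb1, Plxnb2 and Plxnb3. Of 34 members 17 passed the filter, 6 were higher and 6 lower in endothelial-like cells, beside 12.7% of all 7059 genes tested that were higher and 13% that were lower. A member could pass the filter through the class where it is high, so the counts describe the tested members only. Their median log2 fold change was 0.42, against -0.06 over all genes tested. The endothelial-like sums were small, with 154, 126 and 66 cells and 576728 UMIs in all.

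Nrp1 was at 305, 285 and 449 CPM in endothelial-like and at 6.47, 11.2 and 2.22 in glioma or progenitor-like cells (log2 fold change 6.12 ± 0.58, SE). Sema3c was at 518, 327 and 433 against 0, 7.32 and 8.87 (6.11 ± 0.55), and Sema7a at 573, 729 and 465 against 41.0, 17.7 and 28.1 (4.59 ± 0.45). These 3 members stood apart in every sample. Plxnd1 was at 67.9, 51.4 and 173 against 12.9, 14.6 and 19.1 (2.67 ± 0.50). Plxna2 was at 72.1, 56.1 and 150 against 32.4, 25.1 and 28.1 (1.79 ± 0.48), and its call was lost without the late sample. Sema3g passed with overlapping groups and lost its call without the early or the medium sample. All of these members passed the low-count filter only through the endothelial-like class, where they are high. Their changes are therefore given without p-values.

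Of the members higher in the glioma or progenitor-like class, Sema3d had 2247 UMIs in glioma or progenitor-like cells and 0 of 576728 UMIs in endothelial-like cells, where a count of 0 allows up to 5.20 CPM. It was therefore at least 44.0-fold lower in endothelial-like cells. Sema3d and the other members called lower in endothelial-like cells passed the filter only through the class where they are high. Their values are therefore given without p-values. Sema5a was at 0, 14 and 7.87 CPM in early, medium and late endothelial-like cells and at 328, 173 and 123 in glioma or progenitor-like cells (log2 fold change -4.69 ± 0.68, SE). Its receptor Plxnb3 was at 8.49, 14 and 0 against 112, 146 and 161 (-3.83 ± 0.63), and Plxnb2 at 12.7, 4.67 and 15.7 against 64.7, 72.9 and 83.5 (-2.61 ± 0.62). Plxnb1 and Plxna3 had 1 UMI each in endothelial-like cells, and pooled ratios of glioma to endothelial of 26.7 (95% counting interval 4.77 to 1057) and 24.6 (4.39 to 974). Sema3b, Sema3e and Sema5b, with 610, 354 and 229 UMIs in glioma or progenitor-like cells, had 0 UMIs in endothelial-like cells and were not tested. All 17 members left out of the test had 7 or fewer UMIs in endothelial-like cells. Nrp2, Sema6a, Sema6d, Plxna4 and Sema4c did not pass, with adjusted p from 0.222 to 0.955 in edgeR. The 8 endothelial markers summed to 12269 to 13314 CPM in endothelial-like and 36.7 to 46.4 in glioma or progenitor-like cells. The 8 oligodendrocyte markers reached 331 to 5151 in endothelial-like and 2495 to 4073 in glioma or progenitor-like cells, and the 10 macrophage markers 2591 to 2990 (Ccr2, Plac8 and Arg1 at 0) and 56.1 to 173. Summed over the stages, the 5 erythroid markers were at 10381 CPM in endothelial-like and 15.6 in glioma or progenitor-like cells. The part of these lists in the results was not tested. Without trimmed-mean scaling the median of all genes moved by -0.18 on the log2 scale.

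**Figure D3:**
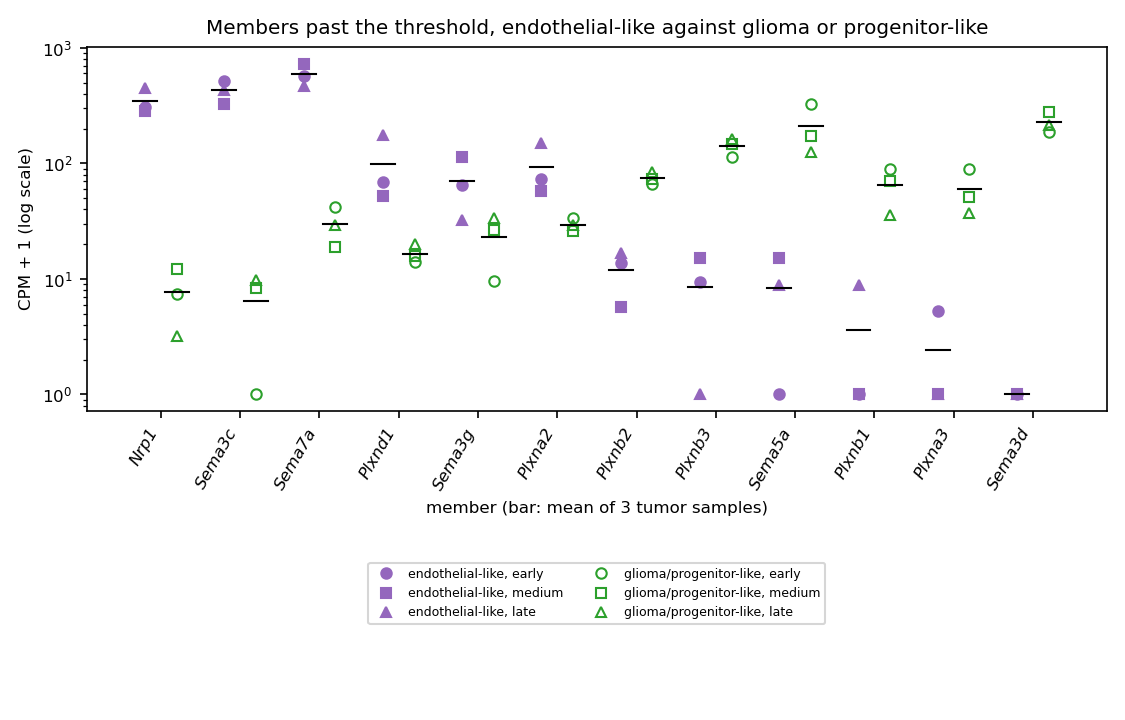
Level of the 12 members past the threshold between endothelial-like (filled) and glioma or progenitor-like cells (open), as CPM + 1 on a log axis, with symbols for the early, medium and late tumor samples and a bar at the mean. Nrp1, Sema3c and Sema7a were at 285 or more in endothelial-like cells, and Sema3d was at 0 there against 186 or more.

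In the early sample the human EGFR row had 0 UMIs in the Susd5-led and in the Gpr17-led cluster, which held 140 and 29 of the 173 early cells of the glioma or progenitor-like class. Over all stages 1.43% of the Susd5-led cells of the CD45- sort had a UMI of that row. The share was 79.9% in the Gpr17-led, 89.0% in the Itga8-led and 85.9% in the AI506816-led cluster. With the clusters that carry the human EGFR row alone, an alternative chosen after seeing the data, 8 members were called between endothelial-like and glioma-like cells, all of them among the 12. Higher were Nrp1, Sema3c, Sema7a, Plxnd1 and Plxna2, and lower were Sema3d, Sema5a and Plxnb3. Sema3g, Plxna3, Plxnb1 and Plxnb2 did not pass the filter on low counts there. The share over all genes is not given for this alternative, so its count describes the members only. Sema5a differed widely between these clusters, at 21.4 CPM in AI506816-led cells of the medium and 17.4 in Itga8-led cells of the late sample, against 214 and 255 in Gpr17-led cells of the same samples.

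Glioma or progenitor-like cells were next compared with oligodendrocyte-like cells, the mature cells of the oligodendrocyte lineage. Within the first class, the Itga8-led cluster was named by the human EGFR and Cre rows, Cspg4 and Etv4. The AI506816-led cluster was named by the human EGFR and Cre rows and Cspg4, so the markers did not place the whole class in that lineage. The glioma or progenitor-like cells had more Sema3d, Sema5b, Sema3b, Sema3g, Sema3e, Sema4b, Plxna3, Plxnb2, Plxna1, Plxnc1 and Plxnd1, and less Sema4d, Sema6d, Sema7a and Sema6a. Of 34 members 26 passed the filter, with 11 higher and 4 lower, beside 17.1% higher and 16.2% lower of all 13469 genes tested. The median log2 fold change was 0.97 over the members tested and 0.02 over all genes tested. Here too a member could pass the filter through the class where it is high, as Sema5b, Plxnc1, Sema3g and Plxnd1 did with 2 or 3 UMIs each in oligodendrocyte-like cells, so the counts and the median describe the tested members only. The glioma or progenitor-like sums are the same as in the comparison with vessels, so the 2 comparisons share samples. Without trimmed-mean scaling the median of all genes moved by 0.49 on the log2 scale, with 14 members higher and 3 lower, and all genes split into 3762 higher and 1283 lower in place of 2297 and 2176.

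Sema3d was at 186, 277 and 213 CPM in early, medium and late glioma or progenitor-like and at 5.75, 5.91 and 15.0 in oligodendrocyte-like cells (log2 fold change 4.24 ± 0.38, SE, edgeR adjusted p = 0.000317). Plxnb2 was at 64.7, 72.9 and 83.5 against 6.30, 8.18 and 8.98 (2.74 ± 0.26, edgeR adjusted p = 0.000363), and Plxna3 at 88.5, 50.5 and 36.5 against 3.84, 7.27 and 4.99 (2.88 ± 0.38). None of these groups overlapped. Sema5b, Plxnc1, Sema3g and Plxnd1 had 3, 2, 3 and 3 UMIs in oligodendrocyte-like cells, and pooled ratios of 61.0 (95% counting interval 20.6 to 298), 87.5 (23.9 to 727), 77.5 (26.3 to 378) and 46.1 (15.5 to 226). Sema3b, Sema3e and Sema4b were higher by 3.24 ± 0.50, 2.59 ± 0.64 and 2.04 ± 0.46 on the log2 scale, and Sema4b lost its call without the late sample. Sema3b, Sema3e, Sema4b and Plxna3 also passed the filter only through the glioma or progenitor-like class. Their changes are therefore given without p-values. Plxna1 passed narrowly (edgeR adjusted p = 0.0456) and not without the medium (0.154) or the late sample (0.13).

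Of the members that were higher in oligodendrocyte-like cells, Sema4d was at 190, 213 and 249 CPM there and at 90.6, 21.6 and 24.1 in early, medium and late glioma or progenitor-like cells (log2 fold change -3.13 ± 0.45, SE, edgeR adjusted p = 0.00186). Sema6d was at 175, 160 and 194 against 56.1, 44.3 and 56.9 (-2.25 ± 0.23, edgeR adjusted p = 0.000526), and Sema7a at 65.8, 76.3 and 96.8 against 41.0, 17.7 and 28.1 (-2.07 ± 0.29, edgeR adjusted p = 0.00164). These groups stood apart. Sema6a differed less (-1.04 ± 0.29, edgeR adjusted p = 0.0286), and its adjusted p was 0.403 without the medium sample and 0.181 without trimmed-mean scaling. Sema5a (208 ± 107 against 169 ± 27.1), Plxnb1 (64.0 ± 27.1 against 56.5 ± 15.1) and Plxnb3 (140 ± 24.9 against 165 ± 15.6) did not pass. Without the early sample, 22 members were called in place of 15, 14 higher and 8 lower, and these included the 15. The share over all genes is not given for that fit, so this count describes the members only. The 8 oligodendrocyte markers summed to 67509 to 83590 CPM in oligodendrocyte-like and 2495 to 4073 in glioma or progenitor-like cells, and the 17 glioma or progenitor markers to 1719 to 1987 and 6545 to 15009, with no marker of either list at 0.

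Within the glioma or progenitor-like class the members differed between clusters, which is described with no test because the Itga8-led cluster was sampled at 20 or more cells only in the late sample and the AI506816-led cluster only in the medium one. In the late sample the Gpr17-led cluster (546 cells) had 255 CPM of Sema5a, 38.4 of Sema5b, 65.0 of Plxnb1 and 57.2 of Plxna3. Its Plxnb3 level was 202, beside 135 in the Itga8-led and 95.9 in the Susd5-led cluster of that sample and 133 in the AI506816-led cluster of the medium sample. The Itga8-led cluster (527 cells) of that sample had 17.4 of Sema5a, 10.8 of Plxnb1 and 19.0 of Plxna3, but 109 of Sema3b, 69.7 of Sema3e, 56.4 of Sema3g, 140 of Sema4c and 30.8 of Plxnd1. The AI506816-led cluster (128 cells, medium sample) resembled it in part, with 187 of Sema3b, 75.1 of Sema3g, 123 of Sema4c, 21.4 of Sema5a and 25.0 of Plxnd1. It differed with 44.1 of Plxnb1, 32.2 of Plxna3 and 22.6 of Sema3e, and it had 32.2 of Nrp1. The Susd5-led cluster, with few transgene-bearing cells, had the most Sema5a, with 362, 489 and 479 in early, medium and late samples, and 93.2, 85.1 and 63.9 of Sema5b. Sema3d was present in each of the 4 clusters, from 165 in Itga8-led to 281 in Gpr17-led cells of the late sample and 192 in AI506816-led cells.

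**Figure D4:**
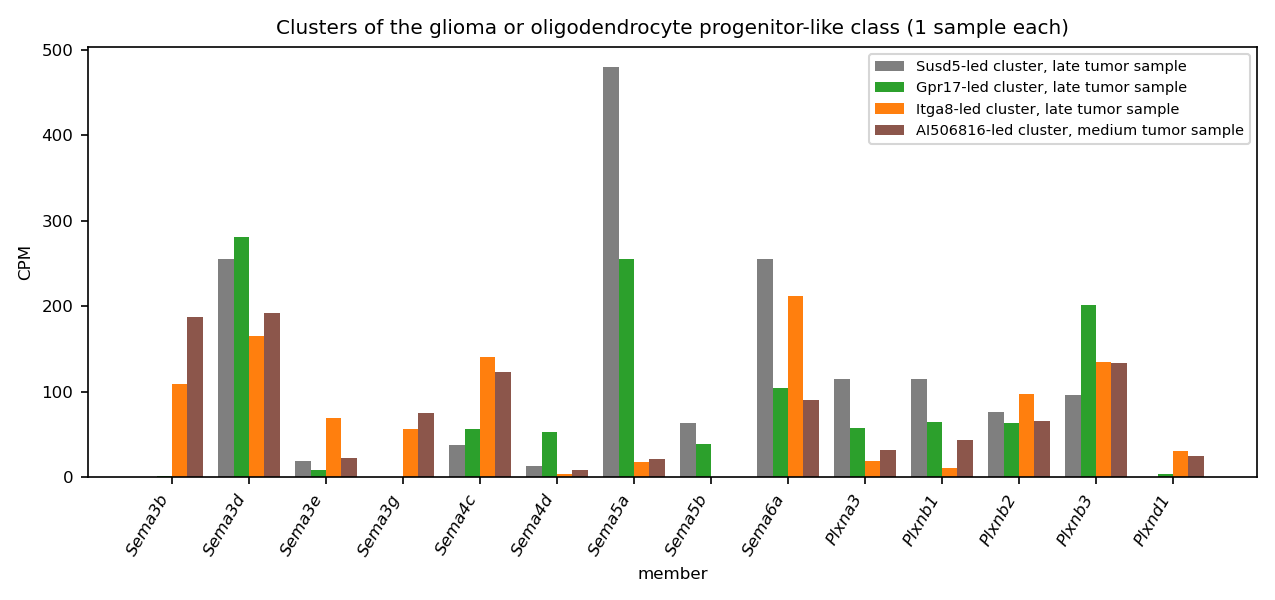
Level of 14 members in the clusters of the glioma or oligodendrocyte progenitor-like class, as CPM in 1 tumor sample each (late for the Susd5-, Gpr17- and Itga8-led clusters, medium for the AI506816-led cluster), with no error bar. Sema5a was at 255 in the Gpr17-led and 17.4 in the Itga8-led cluster, while Sema3b was at 1.48 and 109.

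Macrophage or monocyte-like cells were next set against microglia-like cells, the resident myeloid cells of brain. The class joined 2 clusters, of which 1 was led by genes of dendritic cells as well as monocytes, and each cluster was therefore also compared alone, as described further on. The class as a whole had more Plxnd1, Plxnc1, Plxna1, Sema4a and Nrp2, and less Plxnb2 and Sema4g. Of 34 members 14 passed the filter, with 5 higher and 2 lower, beside 15.8% higher and 12% lower of all 10927 genes tested. The median log2 fold change was -0.13 over the members tested and -0.03 over all genes tested, and the same limit of the filter applies to these counts. Sema7a, with 100 against 11 UMIs, did not pass the filter. Without trimmed-mean scaling the median of all genes moved by -0.14 on the log2 scale, and all genes split into 1407 higher and 1770 lower in place of 1726 and 1315.

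Plxnd1 was at 34.5, 43.5 and 40.02 CPM in early, medium and late macrophage or monocyte-like and at 0.878, 0.813 and 2.07 in microglia-like cells (log2 fold change 5.08 ± 0.46, SE). Plxnc1 was at 38.8, 44.5 and 35.9 against 0.752, 0.813 and 2.59 (5.06 ± 0.48). Plxna1 was at 12.9, 13.2 and 36.9 against 1.76, 2.44 and 2.07 (3.39 ± 0.52). All 3 plexins stood apart in each sample, with 12, 12 and 21 UMIs in microglia-like cells. They passed the filter only through the macrophage or monocyte-like class, where they are high. Their changes are therefore given without p-values. Sema4a was at 92.7, 118 and 19.5 against 6.77, 8.13 and 6.74 (3.34 ± 0.39, edgeR adjusted p = 1.23e-05). Nrp2 was at 23.7, 51.1 and 50.8 against 18.4, 13 and 25.4 with overlapping groups (1.25 ± 0.31, edgeR adjusted p = 0.00533), and its adjusted p was 0.11 without the medium sample. Sema4g was at 6.47, 2.84 and 5.13 against 30.5, 35.0 and 32.6 (-2.68 ± 0.42). It passed the filter only through the microglia-like class and is likewise given without a p-value. Plxnb2 was at 183, 149 and 237 against 321, 338 and 389 (-0.76 ± 0.20, edgeR adjusted p = 0.00664), and this call was lost without the medium sample (0.17), with the highest-scoring 5% of possible doublets removed (0.103) and with the Rnase2a-led cluster alone (0.152). Nrp1, Plxna4os1, Sema4c, Sema4d, Sema5a, Plxna4 and Sema4b did not pass, with adjusted p from 0.0817 to 0.863 in edgeR.

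The macrophage or monocyte-like class joined 2 clusters with different members. The Rnase2a-led cluster, with Arg1 among its leading genes, held 570 of the 635 late cells, and the Xcr1-led cluster held 318 of the 425 medium cells. Of the 10 leading genes of the latter, Xcr1, Itgae, Ccr7 and Napsa are known from dendritic cells and Ms4a4c and Ccr2 from monocytes. Among the fixed markers this is 2 of each list, so the name of that cluster is uncertain. Against microglia-like cells, and chosen after seeing the data, the Rnase2a-led cluster alone gave 6 calls, 5 higher and 1 lower, and the Xcr1-led cluster alone 7, 3 higher and 4 lower. Shares over all genes are not given for these fits, so the counts describe the members only. Plxnd1 and Sema4a were higher and Sema4g lower with either cluster. Plxnb2 was lower with the Xcr1-led cluster (log2 fold change -1.47 ± 0.20, SE, edgeR adjusted p = 1.57e-06) and did not pass with the Rnase2a-led cluster (-0.35 ± 0.15, edgeR adjusted p = 0.152). Nrp2 passed with the Rnase2a-led cluster (1.83 ± 0.37, edgeR adjusted p = 0.00434) and not with the Xcr1-led one (0.24 ± 0.51, edgeR adjusted p = 0.767). Nrp1 was likewise called with the Rnase2a-led cluster only (1.07 ± 0.26, edgeR adjusted p = 0.0116, against -0.25 ± 0.36 and 0.648). Plxna4 and Plxna4os1 were called lower with the Xcr1-led cluster (edgeR adjusted p = 0.015 for Plxna4). Plxna4os1 passed the filter there only through the microglia-like class and is given without a p-value. Plxnc1 and Plxna1 passed the low-count filter with 1 of the clusters each. Whether the clusters differ from each other was not tested. The 8 dendritic markers summed to 517 to 2130 CPM in the class and to 887 to 1105 in microglia-like cells, with Clec9a at 0 in microglia-like cells, and their part in the comparison was not tested. Sema4a was at 128, 152 and 70.8 in early, medium and late Xcr1-led cells and at 29.9, 33.4 and 14.6 in Rnase2a-led cells. Plxnb2 was at 138, 110 and 106 against 263, 247 and 249, and Nrp1 at 47.2, 23.8 and 47.2 against 95.8, 80.0 and 71.9. Sema7a was at 30.3, 118 and 5.90 in Xcr1-led cells. The clusters did not overlap in Sema4a, Plxnb2, Nrp1, Nrp2, Plxnd1 or Plxna4os1. This list need not be complete, has no share over all genes beside it and is a description of 3 samples. The 8 microglia markers summed to 1977 to 4718 in macrophage or monocyte-like and 16532 to 18910 in microglia-like cells, and the 10 macrophage markers to 2003 to 3198 and 101 to 158, with none at 0.

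**Figure D5:**
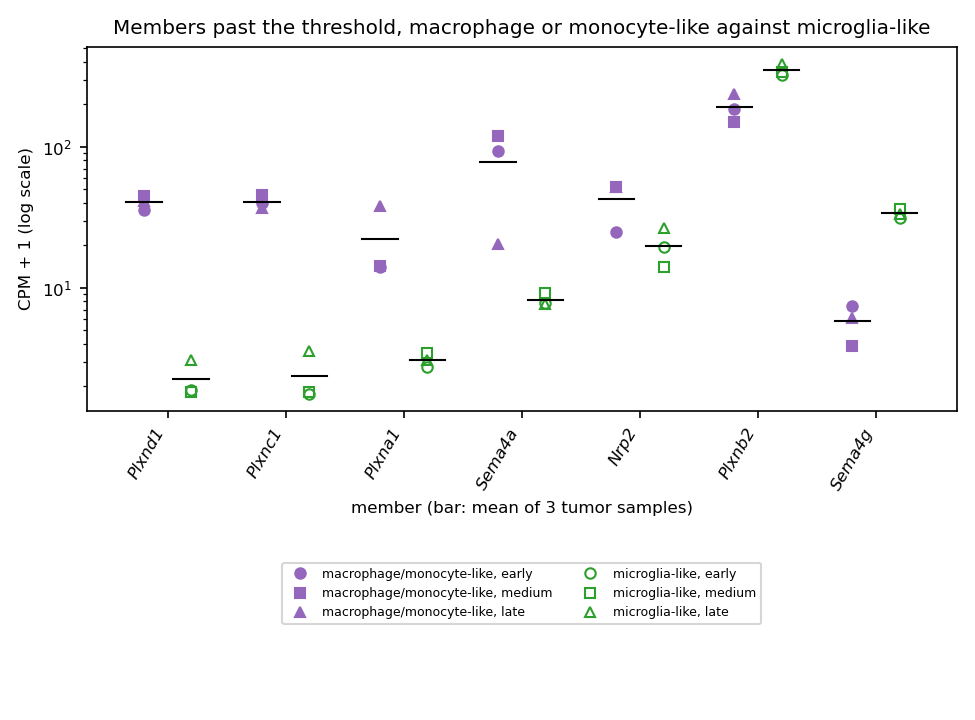
Level of the 7 members past the threshold between macrophage or monocyte-like (filled) and microglia-like cells (open), as CPM + 1 on a log axis, with symbols for the early, medium and late tumor samples and a bar at the mean. Plxnd1 and Plxnc1 were at 34.5 or more in macrophage or monocyte-like cells and at 2.59 or less in microglia-like cells, and the Sema4a level of the late sample (19.5) was below the other macrophage values.

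Differences between stages rest on 1 tumor sample each and could not be tested. A member was counted when its ratio was at least 2-fold with a 95% counting interval that left out 1, at 10 or more UMIs over both stages. In glioma or progenitor-like cells, late over medium, 3 of 31 members were higher and 1 lower, beside 4.96% and 5.41% of 17608 genes. Sema3e was at 43.9 against 16.6 CPM (ratio 2.65, interval 1.92 to 3.74), with within-run ratios of 1.67, 3.81 and 2.41. Sema3f was at 9.16 against 1.54 (5.94, 2.21 to 22.5) and Sema3a at 3.25 against 0.771 (4.22, 1.04 to 37.0, on 22 and 2 UMIs). Nrp1 was lower, at 2.22 against 11.2 (0.198, 0.0988 to 0.382), in each of the 3 runs. The Itga8-led cluster held 527 of 1129 late and 12 of 442 medium cells and the AI506816-led cluster 0 and 128. Of the 29 medium Nrp1 UMIs 27 were in the AI506816-led cluster, and in the Gpr17-led cluster Nrp1 was at 1.46 CPM (medium) and 0.738 (late), on 2 UMIs each. Of the 297 late Sema3e UMIs 272 were in the Itga8-led cluster, which held 62 of the 62 late Sema3f UMIs, and Sema3e in the Gpr17-led cluster was at 8.78 (medium) and 8.12 (late).

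In oligodendrocyte-like cells, late over early, 4 of 21 members were higher and 0 lower, beside 4.97% and 2.87% of 14098 genes. Plxna4 was at 137 against 53.4 CPM (ratio 2.56, 95% counting interval 2.12 to 3.09), and at 1.67 times without run 1. Sema3d was at 15.0 against 5.75 (2.60, 1.44 to 4.78), and the human EGFR row in these cells stood at 0.274, 26.4 and 9.48 in early, medium and late samples. Plxna1 (2.11, 1.19 to 3.76) and Sema4g (2.88, 1.33 to 6.51) also passed. The Plxna1 ratio was 1.49 without run 1, under 2-fold like that of Plxna4, and the Sema4g ratio was 0.508 in run 2 against 5.95 and 5.73 in the others. In endothelial-like cells 2 of 11 members were higher and 0 lower, beside 8.75% and 6.02% of 6296 genes. These were Plxnd1 (173 against 67.9, ratio 2.55, interval 1.28 to 5.20) and Plxna2 (150 against 72.1, 2.07, 1.02 to 4.25), with 22 and 19 late UMIs, and in run 2 both were lower in late cells. With the highest-scoring 5% of possible doublets removed the Plxnd1 ratio was 1.73. In microglia-like cells 2 of 23 were higher and 0 lower, beside 3.21% and 1.82% of 16023 genes. These were Plxna3 (ratio 3.54, interval 1.50 to 8.25), whose ratios in the runs were 0, 9.56 and 1.08, and Sema7a with 9 against 2 UMIs (18.6, 3.85 to 177). Nrp1 was at 32.1 against 59.2 CPM (0.543, 0.41 to 0.708) and was counted as lower, at a ratio of 0.496, with the highest-scoring 5% of possible doublets removed.

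Genes that act with semaphorin receptors were taken from a list of 42, which holds collapsin response mediators (Dpysl2 to Dpysl5, Crmp1), MICAL oxidases, kinases, Rap proteins and the vascular growth factors and receptors that share neuropilins. Of the 40 tested between the sorts 9 stood higher and 16 lower in the CD45+ sums, which is 22.5% and 40% beside 20.4% and 25.7% of all genes tested, and their median log2 fold change was -0.52. The receptor subunit Trem2, which forms a complex with Plxna1, was at 859, 432 and 695 CPM in CD45+ and 58.2, 32.1 and 6.45 in CD45- sums, and its adaptor Tyrobp at 1300 ± 53.0 against 51.6 ± 39.99 (edgeR adjusted p = 0.00119 and 0.00145). The kinase Fes, which binds plexins, was at 49.0 ± 3.47 against 2.65 ± 1.17 (edgeR adjusted p = 0.000101). Dpysl5, Dpysl4, Rnd2, Dpysl3 and Crmp1, which are neural, were lower by 2.74 to 4.09 on the log2 scale.

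Between endothelial-like and glioma or progenitor-like cells 23 of the list were tested, with 6 higher and 6 lower (26.1% each, beside 12.7% and 13% of all genes tested, median log2 fold change 0.36). Flt1 (3451 ± 762 against 7.87 ± 3.04 CPM) and Kdr (1327 ± 113 against 6.46 ± 7.48) were higher with Nrp1, as were Rras, Rap1b and Rap1a among others. Dpysl3 and Vegfa had 0 UMIs in endothelial-like cells and were at least 38.6-fold and 9.68-fold lower there, and Fyn, Rnd2 and L1cam were also lower. Vegfa stood at 175, 53.6 and 40.6 in early, medium and late glioma or progenitor-like cells. Against oligodendrocyte-like cells, glioma or progenitor-like cells had 12 of 33 higher, led by Dpysl4, Mical1, Dpysl3 (197 ± 27.0 against 3.23 ± 0.243), Flna and L1cam, and 4 lower (Rap1a, Dpysl2, Dpysl5 and Cdk5). That is 36.4% and 12.1%, beside 17.1% and 16.2% of all genes tested, with a median log2 fold change of 0.37. Between macrophage or monocyte-like and microglia-like cells 8 of 27 were higher, with Fyn, Flt1 (60.3 ± 38.1 against 9.97 ± 5.80), Vegfa (84.6 ± 33.4 against 14.5 ± 6.46), Mical1 and Flna in front, and Rock2, Trem2, Dpysl2 and Rock1 were lower. These are 29.6% and 14.8%, beside 15.8% and 12% of all genes tested, with a median log2 fold change of 0.13. Trem2 was at 477 ± 176 against 1010 ± 15.8, opposite to Plxna1 in these cells.

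Set side by side, known ligands and receptors lay in different classes for some pairs and in the same class for others. Sema3c and its co-receptor Nrp1 were both highest in endothelial-like cells, at 426 ± 95.5 and 346 ± 89.3 CPM. Sema3d was highest in glioma or progenitor-like cells, where Nrp1 was at 6.62 ± 4.48 and Nrp2 at 21.5 ± 15.0, while the neuropilins of endothelial-like cells were at 346 ± 89.3 and 39.0 ± 14.2. Sema7a was highest in endothelial-like cells and its receptor Plxnc1 in neutrophil-like cells (92.4 ± 17.8), with 1 UMI of Plxnc1 in endothelial-like cells. Sema4d was highest in oligodendrocyte-like cells and its receptors Plxnb2 in microglia-like and Plxnb1 in astrocyte-like cells. Sema5a and Plxnb3 were both among the 5 most abundant members of glioma or progenitor-like and of oligodendrocyte-like cells. RNA of a ligand and its receptor in these classes does not show that the proteins met, which was not measured.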

How the data were processed

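Single cells of the CD45+ and CD45- sorts of 3 tumor samples were captured with inDrop. The authors deposited UMI counts per gene and cell, made by pseudo-alignment to the mouse transcriptome with added transgene rows, and a text annotation of each library, whose columns (other values) give sort, stage and run. The build in the submitters' notes is mm10, and whether ambient RNA and doublets, which the methods state were removed, had been removed before deposit is not given in the sources used here. Part of the genotype that all mice shared is not reported here. The members and the lists of markers and partners were chosen with earlier results of these data known.

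Cells with at least 500 UMIs, 500 genes and at most 20% mitochondrial UMIs were kept, and 139 of 17786 cells tested by Scrublet were called doublets (0.782%). Cells were clustered (scanpy 1.11.5, 2000 variable genes without the members, 40 components, 20 neighbours, Leiden resolution 1) and named by at least 3 markers fixed with the design. How markers were counted, ties and the merging of both progenitor lists were set after seeing the data. Counts were summed per tumor sample and sort or class, with at least 20 cells per sum, and tested with edgeR 4.0.16 (R 4.3.3, TMM, quasi-likelihood, low-count filter, Benjamini-Hochberg over all genes, threshold 0.05), with the tumor sample as a block. The sums of a tumor sample are paired because both come from the same tumor sample, and deviations correlated by 0.0804 to 0.422 within a sample. Classes were made from other genes of the same cells, so p-values between classes measure agreement over tumor samples of 3 stages. On simulated counts, log2 changes of 3 were recovered in 99.0% or more of changed genes in each comparison, and changes of 1.5 in 69.7% between the sorts (18084 genes), 41.6% for endothelial-like against glioma or progenitor-like (6454 genes), 72.4% for glioma or progenitor-like against oligodendrocyte-like (13191 genes) and 79.8% for macrophage or monocyte-like against microglia-like cells (10551 genes). The simulated counts held no difference between stages and no pairing, so these rates describe a simpler setting than the data. Named were the members, and of the partners up to 5 of those with the largest change in each direction past the threshold. Stage ratios have exact 95% intervals that cover counting error only. Alternatives included DESeq2 1.42.0, other filters, resolutions and omitted samples.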

Additional observations from a re-analysis of the deposited data

How the results depend on the processing

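Over the 60 tested member results, 632 of 665 alternative values kept their direction and side of the threshold, 33 lost the threshold and 0 reversed, and 9 had no value because the member did not pass the filter. In the 4 tested comparisons the counts of members called kept within 1.5 times the main count under the alternatives run. Between the sorts, 26 members were called with edgeR, 25 with DESeq2, 25 without TMM scaling, 24 with classes limited to their sort and 26 without run 1, and leaving out a tumor sample gave 23 to 26. Endothelial-like against glioma or progenitor-like cells gave 12, and 12 to 15 when a sample was left out. Glioma or progenitor-like against oligodendrocyte-like cells gave 15, and 13 to 22, the highest without the early sample (the cause was not tested). Macrophage or monocyte-like against microglia-like cells gave 7, and 5 to 8. Without the replicate block that pairs the sums of a tumor sample, 23, 12, 18 and 7 members were called in these comparisons, and Sema3d between the sorts had an edgeR adjusted p of 0.0534, Plxnd1 of 0.158 and Plxna1 of 0.381. With the human EGFR clusters alone, chosen after seeing the data, the comparisons with endothelial-like and with oligodendrocyte-like cells gave 8 and 16, and with the unnamed Cxcl9-led cluster added to the macrophages, also chosen then, the last gave 8. With the Rnase2a-led or the Xcr1-led cluster alone, chosen then too, it gave 6 and 7, of which 5 each were among the 7. Of 60 alternative values of the 12 stage differences, 57 stayed past 2-fold and 53 also kept an interval that left out 1 on enough UMIs. Plxna4 and Plxna1 in oligodendrocyte-like cells fell to ratios of 1.67 and 1.49 without run 1, which left 2 of the 4 members of that class. Without run 1, Sema4c was added as higher (ratio 2.02) and Sema4f as lower (0.232) in that class, and Plxnb1 as lower in glioma or progenitor-like cells. Plxnd1 in endothelial-like cells fell to 1.73 with the highest-scoring 5% of possible doublets removed, which left 1 of 2 and added Nrp1 as lower in microglia-like cells. Sema3a in glioma or progenitor-like cells, Plxna3 and Sema7a in microglia-like cells also failed a criterion in at least 1 alternative. Depth limited the endothelial-like sums, where a gene without a UMI may be present at up to 5.20 CPM.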

Other observations

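An unnamed cluster led by Cxcl9, with interferon-response and antigen-presentation genes among its leading genes, held 145 early, 1195 medium and 42 late cells of the CD45+ sort. It was in no named class, and entered a comparison of classes only as an alternative. Summed over the stages, the microglia markers were at 6336 CPM in it and the macrophage or monocyte markers at 513. These lists were at 18625 and 113 in microglia-like and at 3713 and 2513 in macrophage or monocyte-like cells. Plxnd1 was at 22.2, 15.6 and 27.8 in the cluster and Plxnc1 at 6.34, 16.0 and 18.5. The main plexin of the cluster was Plxnb2, at 222, 164 and 371 CPM, and its Nrp1 level was 108, 91.0 and 92.7. Sema4d was at 124, 148 and 102 and Sema4a at 60.2, 64.3 and 9.27, so that the late Sema4a value, from 42 cells, was the lowest. The secreted ligands were near 0 in these cells, with Sema3b, Sema3c and Sema3g at 0 in each sample.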
